A study of Homo sapiens with 6 samples.

Results

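The nonsense-mediated decay factors are the proteins that recognise and destroy mRNAs on which translation stops too early. The 9 genes described here (UPF1, UPF2, UPF3A, UPF3B, SMG1, SMG5, SMG6, SMG8 and SMG9) were found by symbol, and they are 9 of the 15598 genes in the deposited count table. All 9 passed the filter on low counts, which left 11831 genes for testing. RNA was sequenced from MHCC97H, a hepatocellular carcinoma line of high metastatic capacity. In 3 libraries, called SI_3, SI_3_2 and SI_3_3, the cells carried a short hairpin RNA against HNRNPC (shHNRNPC). In the other 3, called NC_3, NC_3_2 and NC_3_3, they carried a control hairpin (shcontrol). The product of HNRNPC, hnRNP C, coats runs of uridine in newly made RNA inside the nucleus and influences which splice sites are used. The labels name no further treatment, no time after knockdown and no second hairpin, and do not say whether either line is a clone or a pool, so an effect of the hairpin sequence and one of the lower HNRNPC level cannot be told apart. They also do not say what makes the 3 replicates of a group independent, so p-values measure the spread between these libraries, which may be technical.

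Total counts were 16692497 to 17889820 in the shHNRNPC libraries and 15563077 to 18328475 in the shcontrol libraries. HNRNPC itself averaged 62.3 ± 3.80 CPM (counts scaled to library size) in shHNRNPC cells and 853 ± 4.76 CPM in shcontrol cells (SD, n = 3 each), which is -3.77 on the log2 scale, with an adjusted p of 5.04e-55 in edgeR's quasi-likelihood test. Of 8 hepatocyte genes looked for, 5 had a row, and their summed level was 0.63 to 1.24 CPM in shHNRNPC libraries and 0.63 to 1.12 CPM in shcontrol libraries, with ALB, APOA1, AFP and HNF4A at or near 0. The epithelial keratin KRT8 averaged 1159 ± 8.21 CPM in shHNRNPC cells and 1006 ± 7.07 CPM in shcontrol cells. In shHNRNPC and shcontrol cells, KRT18 averaged 405 and 364 CPM, CDH1 16.2 and 14.6 CPM, and EPCAM 0.18 and 0.02 CPM. The fibroblast list summed to 19.3 to 20.9 CPM in shHNRNPC libraries and 18.6 to 20.9 CPM in shcontrol libraries. The endothelial list summed to 0.46 to 0.67 CPM in shHNRNPC libraries and 0.59 to 1.4 CPM in shcontrol libraries. The leukocyte list summed to 63.8 to 67.95 CPM in shHNRNPC libraries and 40.9 to 47.5 CPM in shcontrol libraries. Nearly all of that came from CD68, which tumour cells can also express, with CD3E near 0. The part of these markers in the results was not tested.

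Nonsense-mediated decay (NMD) centres on UPF1, an RNA helicase that meets the translation release factors at a stop codon. UPF2 joins UPF1 to UPF3A or UPF3B, which bind the exon junction complex that splicing leaves on the mRNA. SMG1, a kinase whose activity SMG8 and SMG9 restrain, then phosphorylates UPF1, and the phosphorylated helicase recruits the endonuclease SMG6 and adaptors such as SMG5, which lead to decapping and deadenylation. The mRNAs of several of these factors are themselves known NMD targets, and their levels rise when the pathway is impaired.

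Among the factors, UPF2, both UPF3 paralogs and the kinase SMG1 fell in shHNRNPC cells. SMG6 rose slightly, and the helicase UPF1, the adaptor SMG5 and the kinase regulators SMG8 and SMG9 did not pass the test, although UPF1 and SMG5 passed it as lower with libraries scaled by size alone and after the correction for GC content described further on. UPF2 fell 1.72-fold, UPF3B 1.59-fold, UPF3A 1.35-fold and SMG1 1.34-fold, while SMG6 rose 1.13-fold. In bulk RNA a lower level in each cell and fewer cells that express a gene cannot be told apart. Of 9 factors, 4 were called lower (44.4%), against 31.3% of all tested genes, and 1 was called higher (11.1%), against 29.8% of all tested genes. Either call was made for 5 (55.6%), against 61.1% of all tested genes. At least a 1.5-fold fall was reached by 2 of the 9 (22.2%), against 9.12% of all tested genes, and a 1.5-fold rise by 0, against 4.9%. The median log2 fold change was -0.03 over the factors and 0.00 over all tested genes, whose middle 50% lay between -0.28 and 0.20. With 9 members these shares differ from the background by few genes, and they were not tested.

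**Figure D1:**
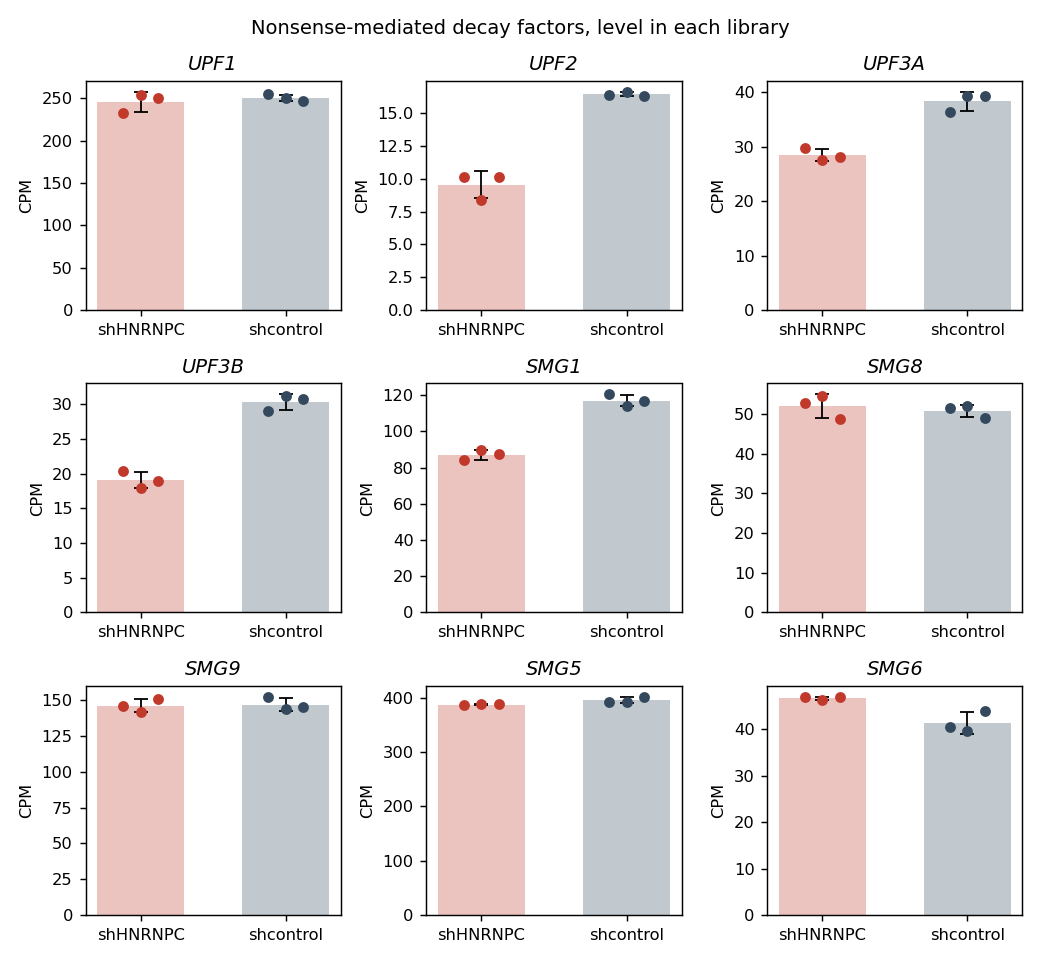
Level of each factor in each library, in CPM on a linear axis from 0; points are libraries, bars the group mean and error bars the SD (n = 3), with shHNRNPC left of shcontrol. The groups are apart for UPF2, UPF3A, UPF3B, SMG1, SMG5 and SMG6 and overlap for UPF1, SMG8 and SMG9.

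UPF1, on chromosome 19 (18831938 to 18868236, plus strand; all positions are as in the deposited table and on GRCh38), had 232, 254 and 250.4 CPM in the shHNRNPC libraries and 255, 249.9 and 246 CPM in the shcontrol libraries. These came from 3818 to 4458 counts per shHNRNPC library and 3949 to 4580 counts per shcontrol library. SI_3 was the lowest of the 6, and the groups overlapped. The log2 fold change of UPF1 was -0.03 (SE 0.029, adjusted p = 0.448), which puts its level in shHNRNPC cells at 98.2% of that in shcontrol cells, with a 95% interval of 94.3% to 102.3%. The lower bound lies well above the level that UPF2 reached.

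UPF2, the bridge between UPF1 and the UPF3 proteins, lies on chromosome 10 (11920022 to 12042834, minus strand). It had 10.2, 8.39 and 10.1 CPM in the shHNRNPC libraries, against 16.4, 16.6 and 16.4 CPM in the shcontrol libraries. The shHNRNPC libraries were all below the shcontrol libraries, and SI_3_2 was the lowest. UPF2 fell to 58.0% of the shcontrol level (95% interval 50.7% to 66.4%), or -0.79 on the log2 scale (SE 0.097, edgeR adjusted p = 1.73e-09). It is also the least counted factor, with 147 to 179 counts per shHNRNPC library and 263 to 304 per shcontrol library, and has the widest error of the 9. Of the 11831 tested genes, 498 fell by more.

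UPF3A and UPF3B are paralogs. UPF3B, on chromosome X (119834482 to 119852971, minus strand), is known as the more active of the pair in NMD. UPF3B had 20.3, 17.97 and 19.01 CPM in the shHNRNPC libraries, against 29.05, 31.1 and 30.8 CPM in the shcontrol libraries. Its highest shHNRNPC library stayed well below its lowest shcontrol library. UPF3B fell 1.59-fold (log2 fold change -0.67, SE 0.072, adjusted p = 4.72e-11). UPF3A, on chromosome 13 (114281584 to 114305817, plus strand), is a weaker activator that has been reported to restrain NMD in some settings. UPF3A had 29.8, 27.6 and 28.1 CPM in the shHNRNPC libraries, against 36.3, 39.4 and 39.3 CPM in the shcontrol libraries. These groups did not overlap either. UPF3A fell 1.35-fold (log2 fold change -0.43, SE 0.062, adjusted p = 6.51e-08). GENCODE 29 lists 3 UPF3A pseudogenes, none with a row in the table, so how reads shared with them were counted is unknown and the UPF3A value is uncertain to that extent.

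Within each library there were 1.46, 1.54 and 1.48 UPF3A counts per UPF3B count in the shHNRNPC libraries, against 1.251, 1.266 and 1.276 in the shcontrol libraries. The ratio was higher in every shHNRNPC library, by 0.24 on the log2 scale as counted. In the GC and length corrected fit described further on, UPF3A and UPF3B fell by nearly the same amount, and the difference between them was 0.02. An exact two-sided permutation test gave p = 0.1, the smallest that 3 against 3 libraries allow, and 0.125 after adjustment over the 5 ratios compared. This test cannot pass 0.05 in the present design. The ratio is one of counts and not of molecules.

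SMG1, the kinase that phosphorylates UPF1, lies on chromosome 16 (18804853 to 18926454, minus strand). It had 84.2, 89.6 and 87.8 CPM in the shHNRNPC libraries, against 120.5, 114 and 117 CPM in the shcontrol libraries. All shHNRNPC libraries were below all shcontrol libraries. SMG1 fell 1.34-fold (log2 fold change -0.43, SE 0.038, adjusted p = 2.02e-13), to 74.5% of the shcontrol level. With fold changes corrected for the GC content and length of transcripts, the fall was 1.10-fold (log2 fold change -0.13, edgeR adjusted p = 0.00213). Its longest coding transcript has 16115 bases, more than in all but 62 of the tested genes, so few genes of like length inform that correction. GENCODE 29 also lists 7 SMG1 pseudogenes, copies of part of the gene, and none has a row in the table. The SMG1 value is therefore uncertain by the unknown share of reads that map to both.

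The kinase's regulators did not pass the test. SMG8, on chromosome 17 (59209400 to 59215239, plus strand), had 52.8, 54.5 and 48.8 CPM in the shHNRNPC libraries and 51.5, 51.96 and 49.1 CPM in the shcontrol libraries. The groups overlapped, and SMG8 stood at 102.4% of the shcontrol level (95% interval 95.2% to 110.1%, edgeR adjusted p = 0.588). The coding gene AC099850.2 overlaps SMG8 on the same strand and has no row, so how reads shared with it were counted is unknown. SMG9, on chromosome 19 (43732270 to 43754962, minus strand), had 146, 142 and 151 CPM in the shHNRNPC libraries and 152, 144 and 145 CPM in the shcontrol libraries. Here too the groups overlapped, at 99.4% of the shcontrol level (95% interval 94.9% to 104.2%, edgeR adjusted p = 0.847). Both intervals lie above the 74.5% reached by SMG1. The SMG8 to SMG9 count ratio averaged 0.357 ± 0.031 in shHNRNPC libraries and 0.346 ± 0.014 in shcontrol libraries (SD, n = 3 each, exact permutation p = 0.7).

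Measured against their partner UPF1 in the same library, SMG1 and UPF2 were lower in every shHNRNPC library. There were 0.355 ± 0.0063 SMG1 counts per UPF1 count in shHNRNPC libraries and 0.468 ± 0.010 in shcontrol libraries, a log2 difference of -0.40. For UPF2 there were 0.039 ± 0.0055 counts per UPF1 count in shHNRNPC libraries and 0.066 ± 0.0012 in shcontrol libraries, a log2 difference of -0.76. Between the corrected log2 fold changes, the SMG1 to UPF1 difference was -0.05 and the UPF2 to UPF1 difference was -0.39. SMG1 and UPF2 have 43.2% and 40.3% GC, against 60.5% in UPF1. On the ratios as counted, both exact permutation tests gave p = 0.1, again the smallest possible, and an adjusted 0.125.

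The factors that act on phosphorylated UPF1 split. SMG6, the endonuclease that cuts the mRNA near the stop codon, lies on chromosome 17 (2059843 to 2303771, minus strand). It had 46.9, 46.4 and 46.9 CPM in the shHNRNPC libraries, against 40.6, 39.7 and 44.0 CPM in the shcontrol libraries. The shHNRNPC libraries were all higher, and NC_3_3 came closest to them. SMG6 rose 1.13-fold (log2 fold change 0.17, SE 0.054, adjusted p = 0.00586). The coding genes SRR and HIC1 overlap SMG6 on the opposite strand. SRR averaged 10.3 ± 0.462 CPM in shHNRNPC cells and 6.55 ± 1.27 CPM in shcontrol cells (log2 fold change 0.66, edgeR adjusted p = 1.29e-05), and HIC1 averaged 1.20 ± 0.552 CPM in shHNRNPC cells and 0.948 ± 0.183 CPM in shcontrol cells. Whether counting used strand is not given, so the part of reads from SRR or HIC1 in the SMG6 value was not tested.

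SMG5, an adaptor in the removal of phosphate from UPF1 and in deadenylation, lies on chromosome 1 (156249224 to 156282825, minus strand). It was the most counted factor, with 6355 to 6879 counts per shHNRNPC library and 6204 to 7474 per shcontrol library. SMG5 had 387, 388 and 389 CPM in the shHNRNPC libraries, against 393, 393 and 402 CPM in the shcontrol libraries. The groups did not overlap, yet the difference was small and did not pass the test, at 97.95% of the shcontrol level (95% interval 94.8% to 101.2%, edgeR adjusted p = 0.268). Counting SMG5, 6 of the 9 factors (66.7%) had groups that did not overlap, against 64.0% of all tested genes. In 5 factors (55.6%) every shHNRNPC library was below every shcontrol library, against 33.0% of all tested genes. The SMG5 to SMG6 count ratio was lower in every shHNRNPC library, at 8.30 ± 0.063 in shHNRNPC libraries and 9.58 ± 0.393 in shcontrol libraries (exact permutation p = 0.1, adjusted 0.125).

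The authors' deposited table gives log2 fold changes, SI over NC, of -0.78 for UPF2, -0.66 for UPF3B, -0.43 for UPF3A, -0.42 for SMG1 and 0.18 for SMG6. The same 5 factors pass 0.05 in the authors' deposited table, with SMG6 nearest the limit at an adjusted p of 0.0272.

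**Figure D2:**
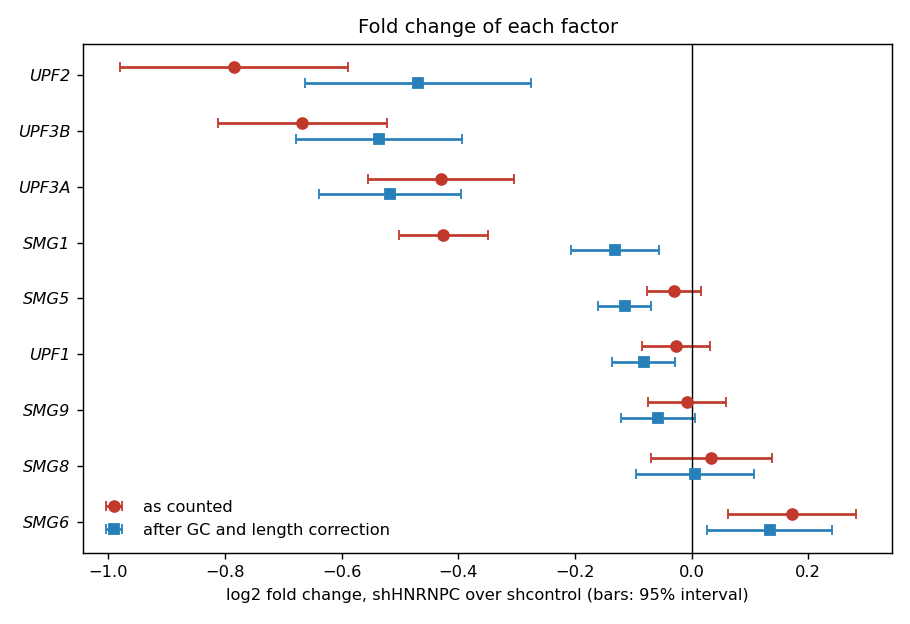
Log2 fold change of each factor, shHNRNPC over shcontrol, as counted (red) and after the correction for GC content and length (blue); bars are 95% intervals and the line marks 0. UPF2, UPF3B, UPF3A and SMG1 lie below 0 on both scales and SMG6 above, while UPF1 and SMG5 have intervals below 0 on the corrected scale alone.

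Fold changes in this series moved with the GC content of the transcript, so that of the factors is given beside them. With the tested genes split into 4 equal groups by GC content, in the group of lowest GC content the median log2 fold change was -0.33 and 58.5% were called lower. In the group of highest GC content the median was 0.11 and 13.8% were called lower. UPF2 (40.3% GC) and UPF3B (41.8%) are in the lowest group, SMG1 (43.2%), SMG8 (47.8%) and UPF3A (48.4%) in the next, SMG6 and SMG9 (55.3% each) in the third, and SMG5 (57.6%) and UPF1 (60.5%) in the highest. The 4 factors called lower thus have 40.3% to 48.4% GC and the other 5 have 47.8% to 60.5%. After the correction, log2 fold changes were -0.47 for UPF2, -0.54 for UPF3B and -0.52 for UPF3A, all still called. On that scale UPF1 (log2 fold change -0.08, edgeR adjusted p = 0.00755) and SMG5 (-0.12, adjusted p = 1.69e-05) were called lower as well, so 6 factors were called lower and 1 higher, where 30.3% of all tested genes were called lower and 25.9% higher. The correction removes any change that follows GC content or length, whatever its source.

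**Figure D3:**
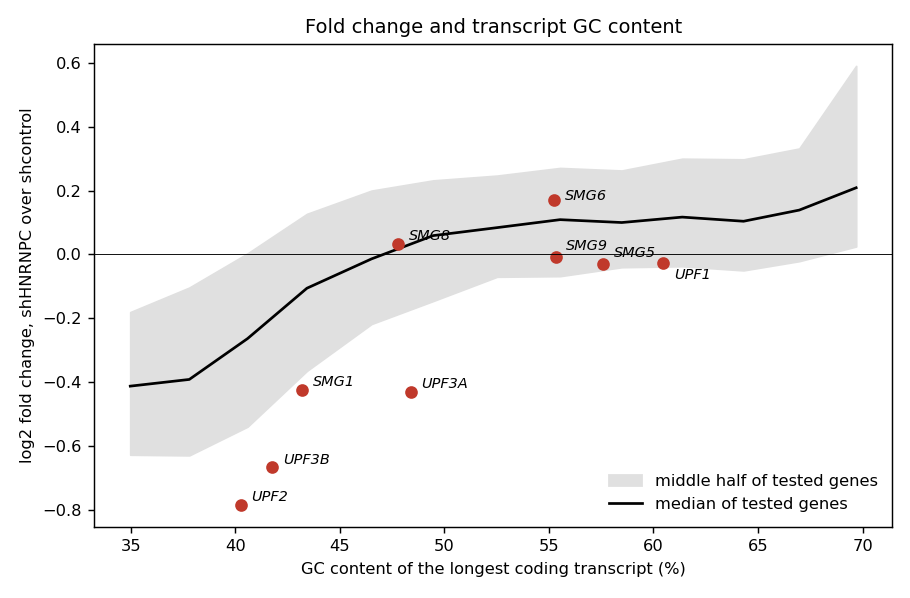
Log2 fold change, shHNRNPC over shcontrol, against the GC content of the longest coding transcript in percent; red points are the 9 factors, the line is the median and the grey band the middle 50% of tested genes in bins of GC content. UPF2, UPF3B, UPF3A and SMG1 lie below the band's lower edge, and SMG6 lies inside the band.

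Because hnRNP C binds runs of uridine, the longest T run in the longest coding transcript was looked up in GENCODE 29. The stretches around the longest runs are shown for SMG1, UPF3B and UPF3A, which fell, and for UPF1, which did not pass the test, with the run in capitals and the sense strand written 5′ to 3′ as DNA.
SMG1: tatagtgtgcaTTTTTTTTggaggtcattc
UPF3B: attattttgagTTTTTTTctaatgatacg
UPF3A: atgacatccttcTTTTTagagatcgtttt
UPF1: ttttctctttgTTTTTTTcaagattcttt
The runs of SMG1 and UPF1 are in the 3′ untranslated region and those of UPF3B and UPF3A in the coding sequence. Runs are given for the 8 factors other than UPF2. SMG1 has a run of 8, UPF3B and UPF1 of 7 each and UPF3A of 5, while SMG6, SMG8 and SMG9 also reach 5 and SMG5 has none that long. The median longest run over all tested genes is 7. Introns, where hnRNP C mostly binds, were not analysed here, and binding was not measured. An annotated transcript of the NMD class occurs in SMG1, SMG8 and SMG9, which is 33.3% of the factors, against 43.1% of all tested genes.

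The promoters of the UPF3 paralogs, which fell together, are shown as the 250 bases before the start site from RefSeq (GRCh38.p14), each on its gene's strand. Capitals mark CCAAT (or ATTGG), the ETS motif CCGGAAG (or CTTCCGG) and the GC box GGGCGG (or CCGCCC), searched on both strands with overlapping matches counted. In these promoters no match overlaps another. UPF3A lies at chr13:114281351-114281600 on the plus strand and UPF3B at chrX:119852964-119853213 on the minus strand.
UPF3A: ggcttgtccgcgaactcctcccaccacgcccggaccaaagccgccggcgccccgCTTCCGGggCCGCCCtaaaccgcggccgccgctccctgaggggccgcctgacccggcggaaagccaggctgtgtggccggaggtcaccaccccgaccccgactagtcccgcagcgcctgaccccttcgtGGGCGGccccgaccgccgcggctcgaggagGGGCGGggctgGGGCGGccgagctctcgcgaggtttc
UPF3B: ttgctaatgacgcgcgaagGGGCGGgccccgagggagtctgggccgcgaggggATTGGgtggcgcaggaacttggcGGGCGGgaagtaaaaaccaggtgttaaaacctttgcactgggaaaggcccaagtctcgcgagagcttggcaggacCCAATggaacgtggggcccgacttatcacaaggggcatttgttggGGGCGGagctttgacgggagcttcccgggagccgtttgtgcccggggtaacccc
UPF3A holds 4 GC boxes and 1 ETS motif, and UPF3B holds 3 GC boxes and 2 CCAAT motifs. Of 9 factors, 8 were matched to a promoter, SMG8 not. GC boxes were also found in UPF2 (4), SMG1 (6), SMG6 (6) and UPF1 (2), and none in SMG5 or SMG9. CCAAT was also found in UPF1 (1) and SMG5 (1), and the ETS motif in UPF3A alone. These 250 bases have 76.8% GC in UPF3A and 62.8% in UPF3B, where the median over all promoters is 58.0%. Among 35116 RefSeq promoters of the same length, 42.6% hold the GC box, 32.0% CCAAT and 8.52% the ETS motif. These matches are descriptions of the letters and not binding sites.

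Per kilobase of longest coding transcript, the factors covered a wide range of levels, with SMG5 highest and UPF2 lowest in both groups. SMG5 averaged 85.1 ± 0.275 CPM per kilobase in shHNRNPC cells and 86.9 ± 1.16 in shcontrol cells. UPF2 averaged 1.72 ± 0.182 CPM per kilobase in shHNRNPC cells and 2.96 ± 0.028 in shcontrol cells. The median tested gene stood at 7.43 CPM per kilobase. In shcontrol cells the order was SMG5, UPF1, SMG9, UPF3A, SMG8, UPF3B, SMG1, SMG6 and UPF2, and SMG1 (7.07 to 7.48) overlapped SMG6 (6.66 to 7.39). In shHNRNPC cells SMG8 (14.03 to 15.7 CPM per kilobase) stood above UPF3A (11.6 to 12.5), and SMG6 (7.78 to 7.87) stood above SMG1 (5.22 to 5.56) and overlapped UPF3B (7.56 to 8.55). The transcripts these cells use were not determined, so each level per kilobase depends on the annotated length.

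**Figure D4:**
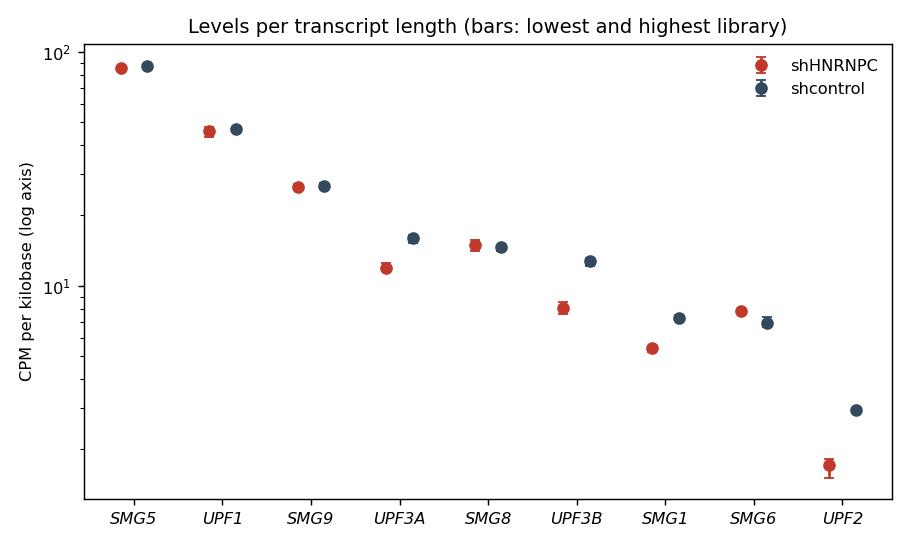
Level of each factor in CPM per kilobase of its longest coding transcript, on a log axis, ordered by the shcontrol mean; points are means and bars the lowest and highest of 3 libraries, shHNRNPC (red) left of shcontrol (blue). UPF3A, UPF3B, SMG1 and UPF2 are lower in shHNRNPC, SMG6 is slightly higher, and the other points lie side by side.

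Genes related to NMD, namely proteins that work with it, its target transcripts and SMG1's kinase family, were read from 9 further lists. Together these hold 101 genes outside the 9 factors, of which 93 were tested. Of those, 41 were called lower (44.1%), against 31.3% of all tested genes, and 32 were called higher (34.4%), against 29.8% of all tested genes. Their median log2 fold change was -0.05, against 0.00 over all tested genes, and the counts of each list below are to be read beside the same shares. No list as a whole was tested. Corrected values in these lists are those after the GC and length correction, and they are given where they move by over 1.5 times. Counts after the correction are to be read beside 30.3% of all tested genes called lower and 25.9% called higher.

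The exon junction complex, which marks splice junctions for UPF3, had 5 of 10 genes called higher and 3 called lower. These counts stand against 29.8% and 31.3% of all tested genes, and the median log2 fold change of the list was 0.12. ACIN1 rose by 0.25 and RNPS1 by 0.23 on the log2 scale, both part of the complex's periphery, while ALYREF, an mRNA export adaptor, fell by 0.34. Corrected log2 fold changes were 0.06 for RNPS1 and -0.58 for ALYREF, and 4 genes of this list were then called higher and 1 lower. In the list of release factors, poly(A)-binding proteins and the initiation factor EIF4G1, 3 of 6 were called lower and 2 higher. All tested genes were called so in 31.3% and 29.8%. The median log2 fold change of these 6 was -0.33. GSPT1, the release factor eRF3a that meets UPF1 at the stop codon, averaged 159 ± 1.62 CPM in shHNRNPC cells and 298 ± 5.41 CPM in shcontrol cells. It fell 1.88-fold (log2 fold change -0.91, SE 0.028, edgeR adjusted p = 2.37e-30), with a corrected log2 fold change of -0.58. ETF1, the release factor eRF1 that reads the stop codon, fell by 0.30 and PABPC1, which binds the poly(A) tail, fell by 0.36 on the log2 scale. The corrected log2 fold change of ETF1 was -0.18. Of the 3 cap-binding proteins, NCBP1 of the nuclear cap-binding complex fell by 0.47 on the log2 scale, its partner NCBP2 rose by 0.16, and EIF4E was not called (log2 fold change -0.07). Corrected log2 fold changes were -0.22 for NCBP1, 0.28 for NCBP2 and 0.37 for EIF4E, which was then called higher (edgeR adjusted p = 0.000209).

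Of 14 other proteins reported in NMD, 9 were called lower and 5 higher, against 31.3% and 29.8% of all tested genes, with a median log2 fold change of -0.12. After the correction 6 were called lower and 5 higher. MOV10, an RNA helicase that binds UPF1, averaged 228 ± 5.55 CPM in shHNRNPC cells and 136 ± 2.51 CPM in shcontrol cells and rose 1.68-fold (log2 fold change 0.75, edgeR adjusted p = 1.90e-25). GNL2, a nucleolar GTPase, fell by 0.34 and the kinase AKT1 by 0.20 on the log2 scale, and the corrected value of AKT1 was -0.31. The 5 other members of SMG1's own kinase family were all called lower, a call made for 31.3% of all tested genes. ATM, a kinase of the response to DNA breaks, averaged 12.6 ± 1.21 CPM in shHNRNPC cells and 21.6 ± 0.578 CPM in shcontrol cells, a log2 fold change of -0.77. Log2 fold changes were -0.63 for ATR, which responds to stalled replication, -0.49 for TRRAP, a scaffold of histone acetyltransferases, -0.43 for PRKDC, a kinase of end joining, and -0.11 for MTOR, the growth kinase. SMG1, at -0.43, lies within their range. The corrected median of these 5 was -0.26, with all 5 still called lower. Corrected log2 fold changes were -0.33 for ATM, -0.26 for ATR and -0.23 for PRKDC.

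The enzymes that take the mRNA apart downstream moved in both directions. In decapping and 5′ to 3′ decay, 4 of 10 tested genes were called lower and 4 higher, against 31.3% and 29.8% of all tested genes, and DCP1B was not analysed here. After the correction 4 were called lower and 2 higher. XRN1, the cytoplasmic 5′ to 3′ exonuclease, averaged 10.6 ± 0.832 CPM in shHNRNPC cells and 21.1 ± 1.32 CPM in shcontrol cells and fell to 49.97% of the shcontrol level (log2 fold change -1.001, SE 0.090, edgeR adjusted p = 2.45e-13). DDX6, a helicase that activates decapping, fell by 0.72 and the decapping enzyme DCP2 by 0.65 on the log2 scale. All were smaller after the correction, at -0.53 for XRN1, -0.38 for DDX6 and -0.19 for DCP2 (edgeR adjusted p = 0.0115). In deadenylation, 5 of 11 tested genes were called lower and 4 higher, against 31.3% and 29.8% of all tested genes. After the GC and length correction 1 was called lower and 6 higher, against 30.3% and 25.9% of all tested genes. PAN2, the catalytic subunit of a deadenylase, averaged 35.7 ± 2.10 CPM in shHNRNPC cells and 20.7 ± 1.33 CPM in shcontrol cells and rose 1.73-fold (edgeR adjusted p = 1.11e-13). Its partner PAN3, picked out after its values were seen, fell 1.59-fold (log2 fold change -0.67, -0.31 corrected, edgeR adjusted p = 4.74e-08). CNOT1, the scaffold of the CCR4-NOT deadenylase, fell by 0.22 and its nuclease CNOT7 by 0.41 on the log2 scale, and neither was called after the correction, at -0.06 for CNOT1 and 0.04 for CNOT7. In the exosome and SKI list, 7 of 16 tested genes were called lower and 2 higher, against 31.3% and 29.8% of all tested genes. After the correction 9 were called lower and 2 higher. DIS3, a nuclease of the exosome, fell by 0.75, TTC37, a SKI scaffold, by 0.78 and the core subunit EXOSC4 by 0.27 on the log2 scale. Corrected log2 fold changes were -0.32 for DIS3, -0.36 for TTC37 and -0.52 for EXOSC4.

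Of 24 transcripts often used as endogenous NMD targets, 19 were tested, SMG5 among them, and GAS5, SNHG1, SNHG12, SNHG15 and ZFAS1 were not analysed here. Of the 19, 9 were called higher and 4 lower, against 29.8% and 31.3% of all tested genes. The median log2 fold change of the 19 was 0.06. After the GC and length correction 8 were called higher and 8 lower, against 25.9% and 30.3% of all tested genes. The corrected median of the 19 was -0.09. ATF4, which drives transcription in the integrated stress response, averaged 388 ± 5.23 CPM in shHNRNPC cells and 257 ± 2.09 CPM in shcontrol cells and rose 1.51-fold (edgeR adjusted p = 5.10e-25). GABARAPL1, an autophagy protein, rose by 0.62 and MAP3K14, a kinase of NF-kB signalling, by 0.41 on the log2 scale. Picked out after their values were seen, the ATF4 target CHAC1 rose by 1.38 and the ATF4 target SLC7A11, a cystine transporter, fell by 1.16 on the log2 scale (-0.67 corrected). ATF4, ATF3, DDIT3, TRIB3 and CHAC1 also belong to the stress response, so their levels do not measure NMD activity alone, and NMD activity was not measured.

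**Figure D5:**
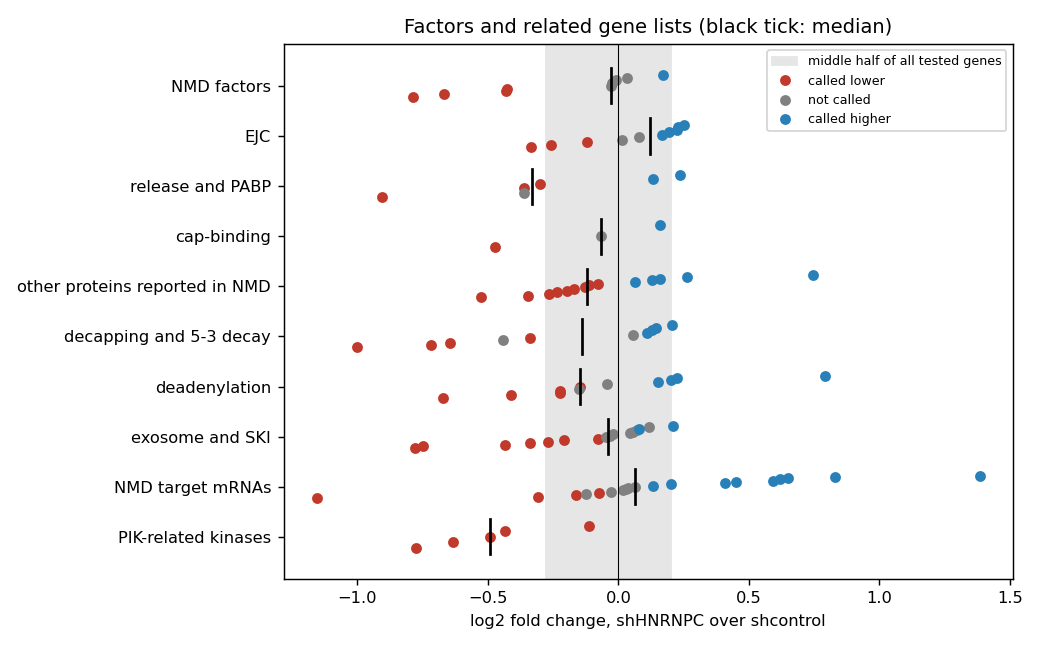
Log2 fold change, shHNRNPC over shcontrol, of each gene in the 9 factors (top row) and in the 9 related lists; points are genes coloured by their call at an edgeR adjusted p of 0.05, black ticks are list medians and the grey band is the middle 50% of all tested genes. The factors spread from -0.79 to 0.17 and the NMD target transcripts from -1.16 to 1.38. The 5 other members of SMG1's kinase family all lie below 0.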

How the data were processed

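Total RNA isolated with Trizol was made into libraries with the NEBNext Ultra kit, per the labels' protocols. STAR, DESeq2 and HTSeq 0.6.0 are named in the submitters' processing notes. Not given in the sources used here are the genome build, annotation, strand setting and handling of reads with several matches. The design text of the series speaks of a microarray, while the deposited values are sequencing counts. The deposited counts are whole numbers per gene and were not scaled by the authors. The deposited table also holds the authors' log2 fold changes, SI over NC, with their p-values and adjusted p-values. Columns named SI and NC were assigned to shHNRNPC and shcontrol as groups, since their suffixes do not give the titles' replicate numbers. Another 24 columns of per-library values were not used. A shorter deposited table repeats the 6194 genes under the authors' adjusted p of 0.05. Every row carries a gene name. Of 15211 rows with a position, 99.9% overlap a GENCODE 29 (GRCh38) gene with the same name.

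Counts were filtered with filterByExpr, scaled by TMM and tested by edgeR 4.0.16 (glmQLFit, glmQLFTest; R 4.3.3), with Benjamini-Hochberg adjustment over 11831 genes and a threshold of 0.05. Levels are TMM-scaled CPM. Standard errors and 95% intervals were derived from each fold change and its test statistic. GC content and length are those of the longest coding transcript in GENCODE 29, and the correction fits both per library with mgcv 1.9.3 as an offset. Ratios were compared with exact permutation tests. The edgeR steps were also run on simulated counts with few changed genes and no trend with GC content. That simulation does not test the scaling or the correction under changes as widespread as those here. Chi-square per gene, over genes with at least 20 counts, was 1.56 to 2.50 between libraries of a group and 29.5 to 33.7 between groups, so no library was counted as a copy of another. Alternatives were other scalings, other filters, DESeq2 1.42.0, voom in limma 3.58.1, the GC and length correction and leaving out each library.

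Named genes are HNRNPC, the 9 factors and every row among the copies of SMG1 and UPF3A and of the NPIP family. The other members of SMG1's kinase family are named as well. In each other list, the named genes are the 3 tested members with the smallest adjusted p. Some items are not reported here. Genes outside this rule are marked as such or stand beside a factor as overlapping genes. The members and lists were chosen with earlier results of these data known.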

Additional observations from a re-analysis of the deposited data

How the results depend on the processing

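The falls of UPF2, UPF3A, UPF3B and SMG1 and the rise of SMG6 kept their direction and their side of the threshold under all 14 alternatives. The number of factors called lower was 6, against 4, under library size alone and under the GC and length correction, which both add UPF1 (-0.07 and -0.08) and SMG5 (-0.07 and -0.12), and 4 under the other 12. Log2 fold changes that were not called changed sign for SMG8 with library size alone (-0.0061), for SMG9 with upper quartile scaling (0.0065) and for UPF1, SMG8 and SMG9 when a library was left out. With each library left out in turn, UPF1 ranged from -0.0515 to 0.0112, SMG8 from -0.0020 to 0.0794, SMG9 from -0.0309 to 0.0142, EIF4E from -0.1671 to 0.0197 and HIC1 from -0.1131 to 0.5329. The sign changes came without SI_3 for UPF1 and HIC1, without SI_3_2 for SMG8, without SI_3_2 or NC_3 for SMG9 and without NC_3_3 for EIF4E. Under the GC and length correction EIF4E was called higher (0.3707, adjusted p = 0.000209), so that 2 cap-binding genes were called higher in place of 1, and CNOT7 changed sign without a call (0.0381). The cause was not tested. Leaving out a library moved the UPF3A to UPF3B log2 ratio difference between 0.22 and 0.25 and that of UPF2 to UPF1 between -0.85 and -0.65. With the difference taken between the GC and length corrected fold changes, an alternative chosen after seeing the data, the ratio difference was 0.0197 for UPF3A to UPF3B, -0.0499 for SMG1 to UPF1 and -0.387 for UPF2 to UPF1. Over all tested genes 2988 to 3719 were called higher and 3156 to 4160 lower. Without SI_3_2 or NC_3, and with library size alone, 1 gene of the exosome and SKI list was called higher in place of 2. Without NC_3_3 it was 0. In deadenylation 3 were called lower in place of 5 without SI_3_2, NC_3_2 or NC_3_3 and with DESeq2. With library size alone, 3 other NMD proteins were called higher in place of 5. Depth limits UPF2 most, at 147 counts in its lowest library.

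No paired analysis was possible because the columns carry no replicate number of the sample titles. Ratios on the authors' FPKM values, T runs over gene bodies and the identity of the UPF3 proteins were not run.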

Other observations

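The NPIP family, duplicated on chromosome 16 in segments that also carry SMG1 pseudogenes, had 16 rows, of which 2 passed the filter on low counts. NPIPB2 had 5.17, 4.85 and 5.15 CPM in the shHNRNPC libraries, against 1.24, 1.46 and 1.56 CPM in the shcontrol libraries, and rose 3.55-fold (log2 fold change 1.83, SE 0.202, edgeR adjusted p = 9.97e-11). The groups were far apart. NPIPB15 averaged 0.558 CPM in shHNRNPC cells and 0.724 CPM in shcontrol cells and was not called. The other 14 rows stayed under 1 CPM in every library. NPIP genes are near-identical, so the counting could split their reads in ways not given in the sources used here, and the NPIPB2 value is uncertain.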
